A study of Homo sapiens with 23 samples.

Results

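Poised regions were described in the established lung cancer cell line NCI-H23, of the non-small cell type. They are stretches of chromatin that carry H3K4me1 together with H3K27me3 and lack H3K27ac and H3K4me3. They were chosen from the peak lists of chromatin immunoprecipitation followed by sequencing (ChIP-seq). Peaks of H3K4me1 were intersected between the 2 replicate lists, as were those of H3K27me3. An H3K4me1 interval was kept when it shared at least 1 bp with an H3K27me3 interval and touched no peak of H3K27ac or H3K4me3 in either replicate. The rule kept 479 of 133813 shared H3K4me1 regions, or 0.358%. Of the 45325 shared H3K4me1 regions without H3K27ac and H3K4me3 peaks, 1.06% were kept.

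The series holds 23 samples of this 1 cell line: 22 immunoprecipitated libraries, for 10 histone marks and the bromodomain protein BRD2 with 2 libraries each, and 1 input, which was not analysed here. The protocol in the labels names the BET inhibitor JQ1 and its solvent DMSO, but library by library the agent is not named, so no treatment was compared. Whether the 2 libraries of a target come from separate cultures is not given either, and the spread between them may be technical. Lists held between 21572 and 277462 peaks on chromosomes 1 to 22, X and Y, and give no read numbers, so depth is unknown.

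H3K4me1 is placed on nucleosomes at enhancers and at the flanks of promoters by MLL3 and MLL4 methyltransferases. H3K27ac, written by p300 and CBP, marks the enhancers that are in use. Polycomb repressive complex PRC2 methylates the same lysine instead, and H3K27me3 is the mark of facultative heterochromatin at silent developmental genes. An enhancer with H3K4me1 and H3K27me3 but no H3K27ac is called poised, a state known from embryonic stem cells. Here the name stands for the combination of marks only, since no readout of gene activity was analysed. H3K4me3 marks promoters, H3K36me3 the bodies of transcribed genes, and H3K9me3 constitutive heterochromatin. Acetylation of the H4 tail at lysines 5, 8 and 12 accompanies active chromatin, and BRD2 reads it through its bromodomains.

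Since H3K4me1, H3K27me3, H3K27ac and H3K4me3 chose the regions, their values are given as a description. H3K9me3, H3K36me3, the 4 H4 acetylation marks and BRD2 took no part in the choice and are compared. Other regions of the same cells served for comparison. Unmarked H3K4me1 regions (44322) had no peak of H3K27me3, H3K27ac or H3K4me3 in either list. Active H3K4me1 regions (57268) had H3K27ac and no H3K4me3. Regions with H3K27me3 only (165069) were shared H3K27me3 intervals without H3K4me1, H3K27ac or H3K4me3. A further 524 H3K4me1 regions touched an H3K27me3 peak in at least 1 list but no shared H3K27me3 interval; they are called the intermediate regions. Each target has 2 libraries, and the smallest two-sided p of an exact test on 2 against 2 libraries is 0.333. Regions are not replicates, so differences are set against the SD between the libraries and no p-value is given. Wilson 95% intervals treat regions as independent and cover counting error only.

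Before the exclusions, 2141 shared H3K4me1 regions touched a shared H3K27me3 region. Most of these, 1636, were left out for an H3K4me3 peak, and 26 more for H3K27ac alone. Overlap of H3K27me3 with H3K4me1 in these cells thus lay mainly in regions that also touched H3K4me3, and the poised regions are the 22.4% that remained. H3K27me3 covered 68.1% of their bases in both lists, and 201 of the 479 lay wholly inside a shared H3K27me3 region. At the edge of the rule, 56 poised regions shared only 1 to 50 bp with H3K27me3, and 25 other regions lay within 50 bp of it without touching. Median H3K4me1 fold enrichment was 3.05 and 3.46 (replicates 1 and 2) just inside and 3.28 and 3.72 just outside. Fold enrichment is the authors' ratio of a peak to local background and is compared only within a list. From the lists of replicate 1 alone 1581 regions met the rule, and from those of replicate 2 alone 2947, so the number depends on requiring both.

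Poised regions were narrow. Their width ran from 1 to 1392 bp with a median of 273 bp (quartiles 220 and 383 bp), against 312 bp for the unmarked, 508 bp for the active and 324 bp for the H3K27me3-only regions. Only 8 (1.67%) reached 1000 bp, whereas 22.1% of the active regions did. At the other end, 34 were under 100 bp wide. In all they covered 0.152 Mb. Nearly each one came from its own H3K4me1 peak, with 471 peaks in replicate 1 and 467 in replicate 2. The H3K27me3 regions they touched had a median of 482 bp (up to 10388 bp), against 325 bp over all shared H3K27me3 regions. Longer regions are touched more readily, so this difference describes the choice.

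H3K4me1 in them was lower than in other H3K4me1 regions, by little in replicate 1 and by more in replicate 2, and H3K27me3 was higher than in H3K27me3-only regions. Median H3K4me1 fold enrichment was 3.23 in replicate 1 and 3.39 in replicate 2. In unmarked regions the medians were 3.28 and 4.77, and in active regions 3.93 and 7.40. Among the 10000 strongest H3K4me1 peaks, 1 poised region was represented in replicate 1 and 6 in replicate 2 (0.209% and 1.25%). The shares were 0.386% and 4.84% of unmarked regions, and 8.65% and 22.5% of active regions. For H3K27me3 the medians were 3.89 and 3.94, against 3.62 and 3.60 in H3K27me3-only regions. Here 91 and 98 of the 479 (19% and 20.5%) touched one of the 10000 strongest peaks, against 8.54% and 7.39% of the H3K27me3-only regions. These values describe the choice and are not evidence for it.

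All 24 chromosomes held at least 1 poised region. Chromosome 2 had 62, chromosome 1 had 46, chromosome 12 had 44 and chromosome 3 had 40. Relative to the H3K4me1 regions without H3K27ac and H3K4me3 on the same chromosome, the average was 10.6 per 1000. Chromosome 8 was highest among the autosomes and X with 18.3 per 1000, followed by chromosome 4 with 16.6 and chromosome 12 with 16.03. The lowest were chromosome 22 with 1.04 (1 region), chromosome 9 with 3.00 (5 regions) and chromosome 16 with 3.18 (5 regions). The order changed when counted against shared H3K27me3 regions: chromosome 19 then led with 6.13 per 1000, and chromosome X was lowest with 0.781. Chromosome Y, with 1 poised region among few H3K4me1 regions, is left out of both orders.

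**Figure D1:**
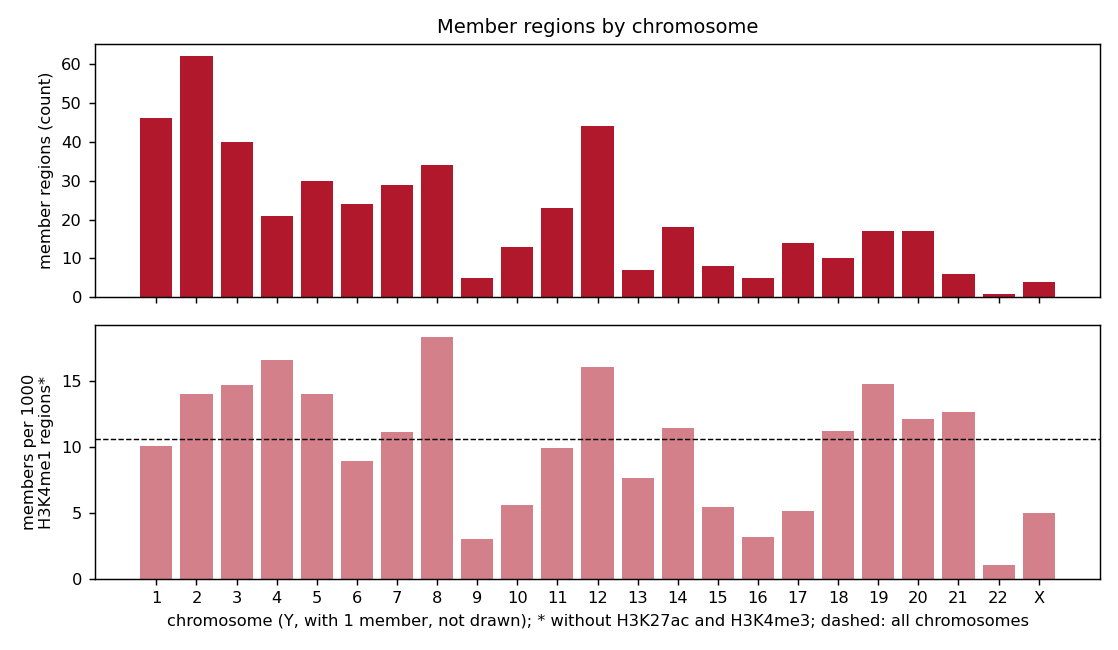
Poised regions (member regions on the axes) by chromosome, Y not drawn. The upper panel gives the number of regions and the lower panel the number per 1000 H3K4me1 regions without H3K27ac and H3K4me3, with the dashed line at the average of 10.6. Chromosomes 8, 4 and 12 are highest and chromosomes 22, 9 and 16 lowest in the lower panel.

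Few of them were close together. With gaps of at most 10000 bp they formed 448 runs, of which 425 held a single region, and the median gap to the nearest other poised region was 302717 bp. The runs with the most members held 4 each, at chr11:66186230-66189028 (2799 bp, 94.6% covered by shared H3K27me3) and chr6:50787678-50790212 (2535 bp, 66% covered). The longest run of 3 lay at chr17:37748314-37760349 (12036 bp, 43.98% covered). None of the 4 regions of the chromosome 11 run touched an H4 acetylation peak, whereas 3 of the 4 on chromosome 6 did and 2 of these 4 had H3K9me3 in both lists. Coordinates are 1-based in hg19, the build named in the submitters' processing notes. Genes and DNA sequence at these positions were not analysed here, as the reference tables used are of another build.

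The surroundings differed from those of unmarked H3K4me1 regions. Within 500 bp of the midpoint of poised regions, H3K27me3 peaks covered 69.1% of bases (mean of 2 libraries). Cover was 46.2% at 500 to 1000 bp and 24.4% at 9500 to 10000 bp. In a window of 10000 bp on each side, shared H3K27me3 regions covered a median of 19.7%, with at least 50% around 24 poised regions (5.01%) and under 5% around 65 (13.6%). Around H3K27me3-only regions the median was 14.1%. Around unmarked regions it was 0, and 96.9% of them had under 5%. Cover by H3K4me1, in contrast, dropped from 51.1% within 500 bp of poised midpoints to 12.5% at 500 to 1000 bp, while at that distance it was 33.9% around unmarked regions. Both marks chose the regions, so these values are a description.

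**Figure D2:**
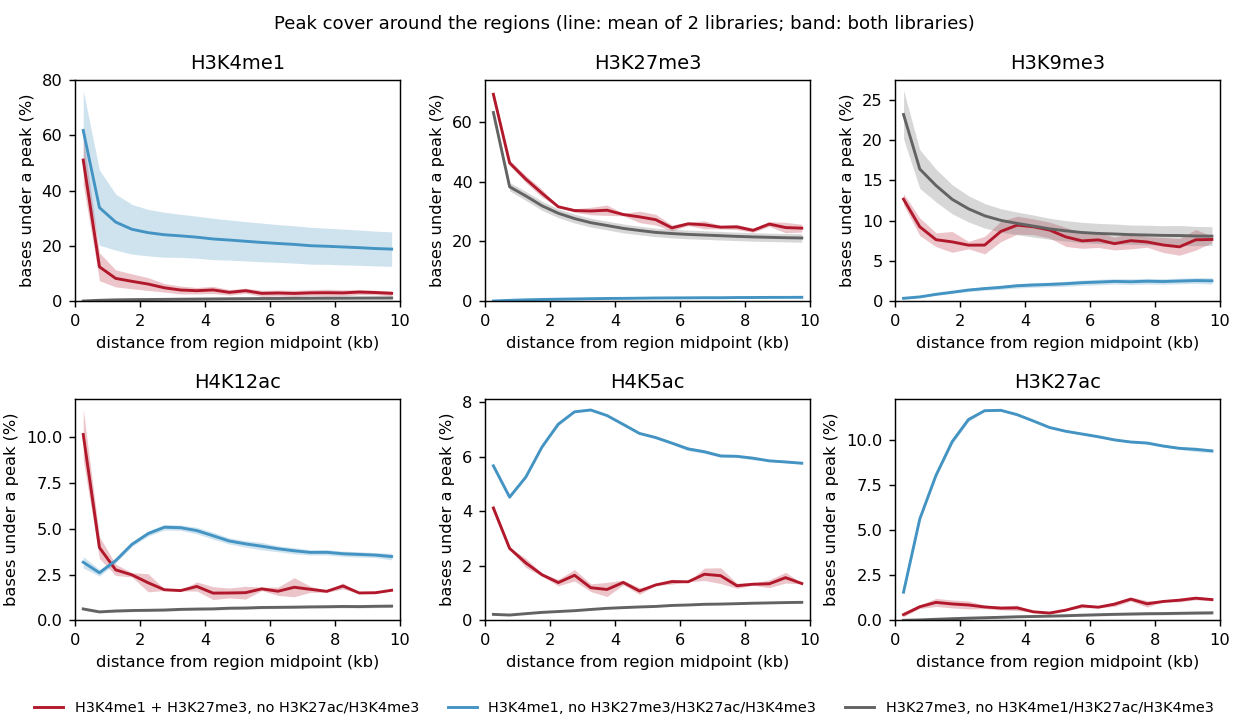
Bases under a peak, in percent, against distance from the region midpoint in kb, both sides combined, in bins of 500 bp. Lines are means of the 2 libraries and bands span both; red is poised regions, blue unmarked H3K4me1 regions, grey H3K27me3-only regions. H4K12ac cover peaks at the midpoint of poised regions (10.2%) and is 3.98% in the next bin.

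H3K27ac and H3K4me3 peaks lay farther from poised than from unmarked regions. The median distance from a poised region to the nearest H3K27ac peak of either list was 77143 bp, against 2238 bp for unmarked regions and 107506 bp for H3K27me3-only regions. For H3K4me3, the promoter mark, these medians were 50943, 16197 and 95045 bp. The distances to H3K4me3 were spread widely: 83 poised regions (17.3%) lay within 1000 bp of an H3K4me3 peak, a larger share than of unmarked regions (11.4%), while 172 (35.9%) lay beyond 100000 bp. H3K27ac was within 1000 bp of 23 poised regions (4.80%) and of 32.7% of the unmarked regions. Neither set can hold these peaks within the regions themselves, since the rule excluded them. H4K12ac was nearer instead, with a median distance of 564 bp against 3845 bp for unmarked regions, and 54.1% against 25.6% had it within 1000 bp. For BRD2 the medians were 10244 and 7256 bp, and 8.77% and 8.98% had it within 1000 bp.

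H3K36me3, the mark of transcribed gene bodies, was not called at any poised region. In replicates 1 and 2 it touched 0 of 479, which allows a share of up to 0.626%. Over all H3K4me1 regions without H3K27ac and H3K4me3 the shares were 24.1% and 23.2%. Unmarked regions had 24.6% and 23.7%, a difference from poised regions of 24.2 percentage points, with an SD of 0.632 (n = 2). With the 40000 strongest peaks of each list outside the rule it was 12.03 points. H3K27me3-only regions also nearly lacked it, with 0.120% and 0.111%. No poised region had an H3K36me3 peak within 1000 bp, and 11 had one within 10000 bp. The median distance was 280462 bp for poised, 2759 bp for unmarked and 260320 bp for H3K27me3-only regions.

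H3K9me3, the mark of constitutive heterochromatin, touched 88 poised regions in replicate 1 and 93 in replicate 2. The second library is numbered 2 in its title but 3 in another label, and the title was followed. The shares were 18.4% (Wilson interval 15.2% to 22.1%) and 19.4% (16.1% to 23.2%). Among all H3K4me1 regions without H3K27ac and H3K4me3 they were 0.792% and 0.916%. Unmarked regions had 0.530% and 0.643%, so poised regions lay 18.3 percentage points higher (SD 0.658, n = 2), a difference many times the spread between libraries. Active regions had 2.17% and 2.51%, and the intermediate regions 6.87% and 7.06%. H3K27me3-only regions had 31.2% and 37.3%, and poised regions were 15.3 points lower than these (SD 3.63, n = 2). From the lists of replicate 1 alone this gap was 7.92 points. With the 40000 strongest peaks of each list outside the rule it was 7.54 points, and that to the unmarked regions 4.48 points.

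Of the 479 regions, 60 had H3K9me3 in both lists, 121 in at least 1 and 358 in neither. H3K9me3 was more frequent where H3K27me3 was stronger. With the lower H3K27me3 −log10 q of the 2 lists under 2, the mean share with H3K9me3 was 8.47% (59 regions). It was 11.1% at 2 to 5 (279 regions), 28.9% at 5 to 10 (97 regions) and 60.2% at 10 or more (44 regions). In the same bins H3K27me3-only regions had 23.03%, 31.5%, 59.4% and 90.8%, above the poised regions each time. In replicate 1 each bin of poised regions was above the one before; in replicate 2 the first and second bins were alike, with 10.2% and 10.04%. H3K9me3 cover was 12.7% within 500 bp of poised midpoints 9.25% at 500 to 1000 bp and 7.67% at 9500 to 10000 bp.

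**Figure D3:**
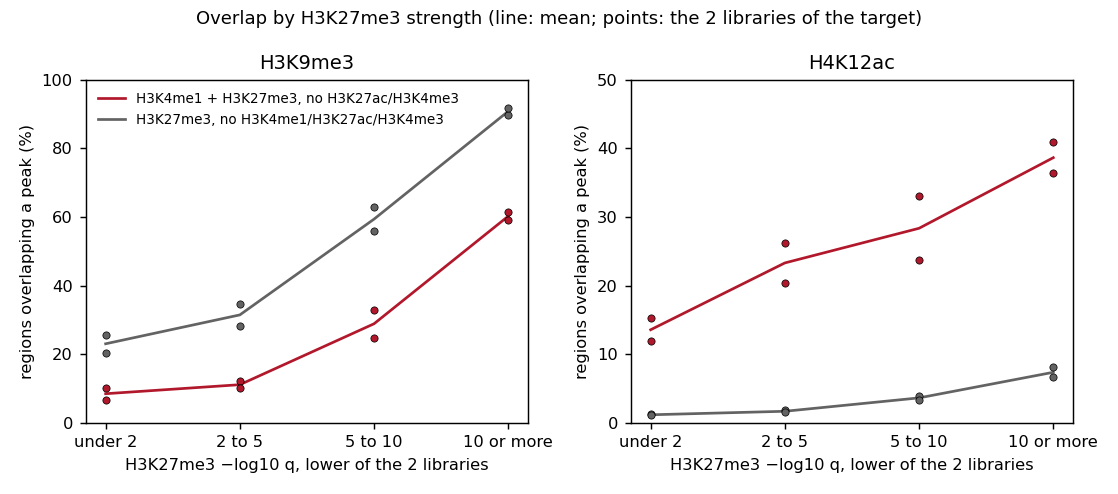
Share of regions overlapping H3K9me3 (left) and H4K12ac (right), in percent, by H3K27me3 strength, the lower −log10 q of the 2 H3K27me3 libraries. Lines are means, points the 2 libraries of the target; red is poised, grey H3K27me3-only regions. In all 4 bins poised regions lie below for H3K9me3 and above for H4K12ac.

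Among the H4 acetylation marks, H4K12ac stood apart from the other 3 in its difference from unmarked regions. It touched 128 poised regions in replicate 1 and 107 in replicate 2, or 26.7% (22.96% to 30.9%) and 22.3% (18.8% to 26.3%). Among all H3K4me1 regions without H3K27ac and H3K4me3 the shares were 8.21% and 6.9%. Unmarked regions had 7.87% and 6.63%, a difference of 17.3 percentage points (SD 2.22, n = 2) and 3.40 and 3.37 times as many. The intermediate regions, with H3K27me3 in part, had 20.04% and 16.03%. In H3K27me3-only regions H4K12ac was rare, with 2.08% and 1.75%. Active regions had 29.9% and 26.5%, a little above the poised ones. In at least 1 list H4K12ac was called at 37.5% of active and 38.6% of poised regions. Required in both lists, it was at 18.98% of active and 10.4% of poised regions, so fewer poised regions kept it. The gap to unmarked regions was 8.34 points from the lists of replicate 1 alone and 6.77 points from those of replicate 2 alone. With the 40000 strongest peaks of each list outside the rule it was 6.36 points.

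Over all poised regions the other H4 marks were below the unmarked regions or within the spread between libraries. H4K5ac, found at 48.2% and 47.8% of active regions, touched 38 and 44 poised regions (7.93% and 9.19%), against 11.4% and 11.1% of all H3K4me1 regions without H3K27ac and H3K4me3. It lay below the unmarked regions by 2.75 points (SD 1.10, n = 2). H4K8ac touched 55 and 35 (11.5% and 7.31%), against 13.4% and 7.6%. H4K5acK8ac, the tail acetylated at both lysines and detected with a mouse monoclonal antibody, touched 15 and 36 (3.13% and 7.52%), against 5.15% and 7.78%. The last 2 differed from unmarked regions by less than the SD between libraries, with differences of -1.13 points (SD 1.21) and -1.14 points (SD 1.28). In the 60 poised regions of 500 bp or more, mean shares were above those of unmarked regions of that width. They were 19.2% against 15.8% for H4K5ac, 20% against 14.1% for H4K8ac and 10% against 8.51% for H4K5acK8ac. For H4K5acK8ac the replicate 1 list gave the opposite order, with 6.667% against 6.775%. At the 35 poised regions with H3K4me1 −log10 q of 5 to 10 the means were also higher, with 18.6% against 16.04%, 18.6% against 13.5% and 10% against 9.15%. In bins this small, gaps of a few points rest on few regions. By bases covered, H4K8ac was 1.05 and 1.10 times that of unmarked regions. In H3K27me3-only regions these 3 marks were rare, as H4K12ac was. H4K5ac touched 0.65% and 0.62% of them, H4K8ac 1.55% and 0.854%, and H4K5acK8ac 0.089% and 0.106%. Against that set all 4 H4 marks were more frequent in poised regions. Averaged over the 4 marks, poised regions were 3.06 points above unmarked ones, a value carried by H4K12ac. With the lists of replicate 1 alone the differences were -8.50 points for H4K5ac, -5.67 for H4K8ac and -4.85 for H4K5acK8ac. The mean of the 4 marks turned to -2.67 points with the lists of replicate 1 alone and was 0.257 points with those of replicate 2 alone.

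**Figure D4:**
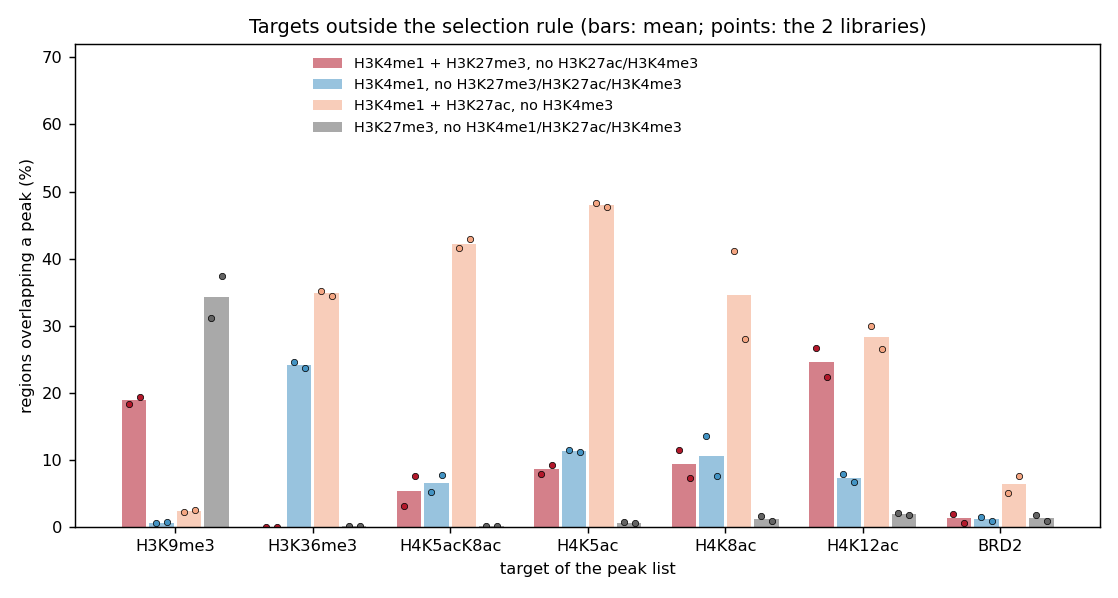
Share of regions overlapping a peak of each target that took no part in the choice, in percent. Bars are means and points the 2 libraries; red is poised, blue unmarked and orange active H3K4me1 regions, grey H3K27me3-only regions. Among the H4 marks, poised regions are near the active ones for H4K12ac only, in shares taken library by library. With H4K12ac required in both lists they had 10.4% against 18.98%. They lie between unmarked and H3K27me3-only regions for H3K9me3, and at 0 for H3K36me3.

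H4K12ac was called in at least 1 list at 185 poised regions, and most of these had no other H4 mark. In 113 of 479 (23.6%) no peak of the other 3 marks accompanied it in any list, against 2.57% of the unmarked regions. The pattern was not particular to poised regions. Of the 5896 H3K27me3-only regions with H4K12ac in at least 1 list, 4776 had no other H4 mark. Of the 5018 such unmarked regions, 1139 had none. Another H4 mark was present at 114 (23.8%) of the poised and 25.3% of the unmarked regions. Requiring H4K12ac in both lists left 50 poised regions (10.4%) on 16 chromosomes, and 3.18% of the unmarked regions. Of these 50, only 16 had no other H4 peak (3.34% of the poised, 0.176% of the unmarked regions). In poised regions H4K12ac called in both lists thus more often came with another H4 mark than alone. Of the 425 H3K27me3-only regions with H4K12ac in both lists, 234 had no other H4 peak. In 252 poised regions (52.6%) no H4 acetylation list had a peak, against 72.2% of the unmarked and 93.9% of the H3K27me3-only regions. In 197 (41.1%) none of the 14 lists outside the rule had one, against 45.9% and 52.9%.

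The difference in H4K12ac was present in each bin of width and of H3K4me1 strength compared. In regions under 200 bp wide the mean share was 14.3% for poised and 4.06% for unmarked regions; at 200 to 300 bp 22.2% and 6.10%, at 300 to 500 bp 29.1% and 7.67%, and from 500 bp 37.5% and 10.5%. In bins of H3K4me1 −log10 q, the lower of both lists, it was 23.02% against 5.69% under 2, 23.03% against 6.88% at 2 to 5 and 41.4% against 10.7% at 5 to 10, where 35 poised regions remained. It was also present near and far from the promoter mark. Within 1000 bp of H3K4me3 24.1% of the poised regions had H4K12ac, at 1000 to 10000 bp 28.7% and beyond 23.98%, against 6.11%, 6.43% and 7.87% of the unmarked regions. On all 16 chromosomes with at least 10 poised regions the share was higher than in unmarked regions of that chromosome. The share of poised regions with H4K12ac was larger where H3K27me3 was stronger, with 13.6%, 23.3%, 28.4% and 38.6% in the 4 bins given for H3K9me3, against 1.17%, 1.68%, 3.63% and 7.36% in H3K27me3-only regions.

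In median strength these H4K12ac peaks were near their lists, but few were among the strongest. Their median fold enrichment was 2.89 in replicate 1 and 3.20 in replicate 2, against list medians of 3.03 and 3.14. Only 1 and 3 of the regions (0.781% and 2.80%) touched one of the 10000 strongest H4K12ac peaks, in lists of 107745 and 102157 peaks. Of the unmarked regions with H4K12ac 1.46% and 2.11% did, and of such active regions 8.09% and 7.63%. A −log10 q under 1.3, that is, a q above 0.05, was found for 14.1% and 16.8% of the poised regions with H4K12ac. These shares were near the 16.4% and 21.7% of the whole lists. The H4K12ac summit lay a median of 164 and 163 bp from the H3K4me1 summit, against 129 and 168 bp in unmarked regions, and 242 and 214 bp from that of H3K27me3. The regions are H3K4me1 intervals and need share only 1 bp with H3K27me3. The rule thus favours a nearer H3K4me1 summit, and the distances to both marks are a description. Cover by H4K12ac was 10.2% within 500 bp of poised midpoints, 3.98% at 500 to 1000 bp and 1.65% at 9500 to 10000 bp. Around unmarked regions it was 3.18%, 2.60% and 3.49% at these distances.

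H4K12ac and H3K9me3 met in a few regions. Both were called in both lists at 9 poised regions. H4K12ac was present in both lists at 15.0% of the 60 regions with H3K9me3 in both, and at 9.78% of the 358 without any H3K9me3 peak. Of the 60, 42 had a peak of at least 1 H4 acetylation list, against 227 (47.4%) of all 479 poised regions. With H3K9me3 in both lists, 33 of 137 unmarked and 3088 of 42214 H3K27me3-only regions had such a peak.

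BRD2 was rare in poised regions, as it was in unmarked ones. It touched 9 poised regions in replicate 1 and 3 in replicate 2, or 1.88% (0.992% to 3.53%) and 0.626% (0.213% to 1.82%). Over all H3K4me1 regions without H3K27ac and H3K4me3 the shares were 1.42% and 0.805%. No poised region had BRD2 in both lists, and 12 (2.51%) had it in 1. Of the unmarked regions, 0.0474% had it in both and 2.17% in at least 1. The difference from unmarked regions, 0.143 points, was smaller than the SD of 0.461 (n = 2), and its sign differed between the libraries. From the lists of replicate 1 alone the difference was 2.31 points, and from those of replicate 2 alone 0.528 points. Active regions had BRD2 at 5.08% and 7.56%. The BRD2 peaks at poised regions had a median −log10 q of 0.643 and 1.16, and none was among the 10000 strongest of its list. In unmarked regions the medians were 0.751 and 1.37. A −log10 q under 1.3 was found for 77.8% and 66.7% of the BRD2 peaks at poised regions, for 78.6% and 48.2% of those at unmarked regions, and for 64.7% and 28.1% of the whole lists. Of the 12 regions, 7 also had an H4 acetylation peak and 3 an H3K9me3 peak. Of all poised regions, 47.4% had an H4 acetylation peak and 25.3% an H3K9me3 peak in at least 1 list.

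The strongest poised regions by H3K27me3 rank lay mostly on chromosome 12, 5 of the 6 named by the rule. The first, chr20:47131670-47132432 (763 bp), had H3K27me3 at 7.52- and 7.46-fold over background in replicates 1 and 2 with −log10 q of 81.1 and 71.6, H3K4me1 at 2.54 and 2.71, H3K9me3 at 4.03 and 4.02, and H4K12ac at 2.35 and 2.19. At chr12:72667153-72667428, H3K27me3 was at 11.6 and 12.2, H3K4me1 at 3.20 and 7.34, H3K9me3 at 8.10 and 5.96, and H4K12ac was called in replicate 2 only. A short overlap of 46 bp at chr12:63544309-63544354 had H3K27me3 at 10.6 and 12.3. The region chr12:103358751-103359031 was the only one of the 6 without H3K9me3, with H3K27me3 at 9.87 and 8.59. The other two, chr12:34755789-34756388 and chr12:108898648-108898863, had H3K27me3 at 12.99 and 7.77 and at 12.7 and 7.77. Their H3K9me3, at 10.5 and 8.40 and at 10.04 and 9.62, put both among the 4 poised regions with the best H3K9me3 ranks. All 6 had an H4K12ac peak in at least 1 list, as had 185 (38.6%) of all 479 poised regions. Of the 6, only chr20:47131670-47132432 and chr12:34755789-34756388 had it in both lists. Among the 44 regions with H3K27me3 −log10 q of at least 10 in both lists, 8 (18.2%) were on chromosome 12, against 11.3% of the H3K27me3-only regions of that strength.

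By H3K9me3 rank the first was chr20:62018279-62018496, with H3K9me3 at 10.4 and 7.03 and no peak of H4 acetylation or BRD2. In the widest poised regions H3K27me3 covered a minor part of the length. At chr7:132003260-132004651 (1392 bp) it covered 132 bp, at chr9:34591144-34592419 (1276 bp) 452 bp, at chr7:41994683-41995860 (1178 bp) 188 bp and at chr12:41221562-41222644 (1083 bp) 373 bp. None of these 4 had H3K9me3. H4K12ac was called in both lists at the region on chromosome 9, in 1 list at chr7:132003260-132004651 and in neither at the other two.

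Of the regions with the best H4K12ac ranks, chr1:156406147-156406386 came first, with H4K12ac at 4.57 and 4.48, H4K5acK8ac at 3.79 and 4.53, and H3K27me3 at 2.85 and 2.89. It touched no H3K9me3 peak. The region chr19:3869309-3869566 (258 bp) carried several marks at once, with H4K5acK8ac at 22.3 and 27.4, H4K5ac at 10.7 and 10.1, H4K12ac at 4.45 and 7.15, H4K8ac at 7.12 in replicate 1 only, H3K27me3 at 6.11 and 5.71 and H3K9me3 at 6.30 and 4.52, without an H3K27ac, H3K4me3 or BRD2 peak. Of the 15 and 36 poised regions with H4K5acK8ac, 2 and 3 (13.3% and 8.33%) touched one of the 10000 strongest peaks of that list. Among unmarked regions with H4K5acK8ac the shares were 3.27% and 5.21%, and among active ones 12.7% and 14.5%. Another poised region with a high H4K12ac rank, chr12:34544927-34545524, had H4K12ac at 3.81 and 3.82 and H3K27me3 at 8.44 and 7.01.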

How the data were processed

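Each of the 22 libraries had 1 narrowPeak list without a header. The submitters' processing notes name BWA, MACS2 and hg19; versions, settings, control and filters are not given in the sources used here. In the deposited lists the fold enrichment is a ratio to local background, its significance is given as −log10 of p and as −log10 of q, the score follows from the former and was not used, and the last column is the summit offset in bp. Lists give no reads, so depth is unknown.

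Peaks on chromosomes 1 to 22, X and Y were intersected by base in Python 3.11.15 (pandas 2.3.3, scipy 1.17.1, numpy 2.4.6, and matplotlib 3.10.9 for plots). An overlap is 1 shared bp unless stated. Shares were computed per library, with the mean and SD of 2 libraries; no test was run, since an exact test on 2 against 2 libraries cannot give a p under 0.333. Overlap functions were tested on simulated data: 0 of 600 interval comparisons differed from a count base by base. The gene and promoter tables are of GRCh38.p14, and peaks lay beyond their last gene end on 15 of 24 chromosomes, so they were not used.

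Regions named are the 6 with the best H3K27me3 ranks, the 4 widest, the 4 best H3K9me3 ranks and the 3 runs with most members, the longer first among runs of equal number; 4 with BRD2 in both lists were planned, but none existed. Those named for H4K12ac, and the comparisons by summit, by distance and by strength, were chosen after values were seen. The regions and comparisons were chosen with earlier results of these data known.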

Additional observations from a re-analysis of the deposited data

How the results depend on the processing

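Of 95 values under alternatives, 52 stayed within a set limit, 41 moved further, and in 2 the mean of the 4 H4 marks changed sign. The limit was 1 SD of the libraries for single targets and 1.5 times for the number of regions. For the median width it was the 95% interval of 264 to 289 bp. For the mean of the 4 H4 marks it was the mean of the 4 single-mark SDs, 1.45 points. That is not the SD of the averaged difference between libraries, so the counts for this value depend on that choice. The BRD2 difference, 0.143 points, kept its sign in 6 of 9 alternatives while staying within 1 SD in the others: it was -0.0291 points with q at most 0.05, -0.0748 with at least 50% covered and -0.0365 with at least 200 bp. Restriction to the 40000 strongest peaks of each list outside the rule was chosen after seeing the data. The differences from unmarked regions in H3K9me3, H4K12ac, H3K36me3, H4K5ac, H4K8ac and H4K5acK8ac, and that from H3K27me3-only regions in H3K9me3, kept their sign in all 9 alternatives; the cause of the changes in size was not tested. H3K9me3 was 16.5 points above unmarked regions with at least 50% of the region covered, 20.4 with regions of at least 200 bp, 21.05 in windows reaching 250 bp to both sides of midpoints and 4.48 with the strongest peaks. Against H3K27me3-only regions it was -10.9 points with 50% covered and -7.54 with the strongest peaks. H4K12ac was 14.5 points above with q at most 0.05, 11.2 with 50% covered, 19.9 with at least 200 bp and 6.36 with the strongest peaks. The mean of the 4 H4 marks was 0.978 points with the strongest peaks. The median width was 262 bp with 50% covered and 307 bp with at least 200 bp.

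Leaving out a replicate gave 1581 to 2947 regions, median widths of 295 to 357 bp, and differences of 16.96 to 19.6 points for H3K9me3 against unmarked regions, -12.95 to -7.92 against H3K27me3-only regions, 6.77 to 8.34 for H4K12ac, 0.528 to 2.31 for BRD2 and -2.67 (without replicate 2) to 0.257 (without replicate 1) for the mean of the 4 H4 marks. Differences between replicates 1 and 2 in peak share per 100000 bp bin were correlated between targets. The correlation ran from -0.242 to 0.355 over 55 pairs of targets, with 2 over 0.1. Since these lists are of different targets and unknown depth, the values cannot show whether libraries of the same number belong together. With the replicate block, that is, regions and lists of the same number, the values were 2264 regions, 326 bp, 18.3 and -10.4 points for H3K9me3, 7.55 for H4K12ac, -1.21 for the mean of the 4 H4 marks and 1.42 for BRD2.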
